A study of Homo sapiens with 18 samples.

Results

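Transforming growth factor β (TGFβ) signalling was followed at the level of mRNA through 10 genes that encode its ligands, receptors and SMAD proteins. The genes were taken by name: the ligands TGFB1, TGFB2 and TGFB3, the receptors TGFBR1, TGFBR2 and TGFBR3, and SMAD2, SMAD3, SMAD4 and SMAD7. All 10 were found, by their Ensembl gene IDs, among the 58825 genes counted in 18 RNA-seq libraries of OVCAR-3, an established cell line of high-grade serous ovarian carcinoma. The cells had received vehicle (DMSO), 1 µM i-BET858 or 1 µM i-BET151 for 4 h or 24 h, with 3 libraries in each of the 6 groups, and all of them were kept in stripped medium during treatment. Both drugs are inhibitors of the BET bromodomain proteins, which bind acetylated histones, and i-BET858 is described by its developers as a bivalent inhibitor of the whole BET family. The design holds 1 cell line, 1 dose of each drug and no added TGFβ ligand in the sample labels.

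In the canonical pathway a secreted TGFβ dimer binds TGFBR2, a constitutively active receptor kinase, which then phosphorylates TGFBR1. TGFBR3, or betaglycan, presents ligand, TGFB2 in particular, to the signalling receptors. Activated TGFBR1 phosphorylates SMAD2 and SMAD3, which enter the nucleus with SMAD4 and regulate transcription, while SMAD7 blocks the receptor and is itself a target of the pathway. In normal epithelia TGFβ restrains proliferation, and in carcinomas, ovarian carcinoma among them, it is also known for promoting invasion.

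The libraries held 27323969 to 46299994 counts, and each member was covered by 59 counts or more in every library, the lowest being TGFB3 with i-BET858 at 24 h. Of 12 ovarian epithelial markers, 11 exceeded 1 CPM (a gene's count scaled to the size of its library) in all 18 libraries, ESR1 being the exception. Fibroblast markers summed to 21.5 to 51.2 CPM, with 1 of 7 above 1 CPM in all 18 libraries, immune markers to 0.0582 to 3.09 CPM and endothelial markers to 1.73 to 15.9 CPM. Library sizes were scaled by TMM factors over all 18 libraries for these levels. Replicate 3, whose labels hold less detail than those of the others, had counts in 17817 to 20642 genes, against 23674 to 24947 in replicates 1 and 2. TGFB2, TGFBR3 and SMAD7 were highest in replicate 3 in all 6 groups. Some changes are therefore also given for replicates 1 and 2 only, for replicate 3 by itself or without 1 library. No value of replicate 3 by itself is given for TGFB2, TGFBR3 or SMAD7. Log2 changes of replicate 3 are ratios of single libraries and carry no test.

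The members with the largest changes were TGFBR2, TGFB2, TGFB3 and SMAD3, and the 250 bases before their start sites are printed here because their mRNA changed by at least 2-fold past the test in 1 or more comparisons of a drug with DMSO. The sequences come from RefSeq (GRCh38.p14), run 5′ to 3′ on the strand of the gene and equal the hg38 reference. Capitals mark matches on either strand. The motifs searched were the SMAD element, spelled CAGAC, the core of a cAMP response element, spelled TGACG, the E-box with the letters CACGTG, the TATA box with the letters TATAAA and the GC box with the letters GGGCGG. GTCTAGAC, the palindrome of the SMAD element, and TGANTCA, an AP-1 site, were also searched and had no match in any of the 4 windows. The positions are chr3:30606351-30606600 (plus strand) for TGFBR2, chr15:67065352-67065601 (plus) for SMAD3, chr1:218345086-218345335 (plus) for TGFB2 and chr14:75981996-75982245 (minus) for TGFB3.
TGFBR2: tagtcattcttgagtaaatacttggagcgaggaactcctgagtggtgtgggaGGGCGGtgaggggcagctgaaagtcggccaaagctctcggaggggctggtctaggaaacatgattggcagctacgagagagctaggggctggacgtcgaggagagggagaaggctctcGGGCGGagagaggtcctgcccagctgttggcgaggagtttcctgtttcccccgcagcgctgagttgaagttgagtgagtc
SMAD3: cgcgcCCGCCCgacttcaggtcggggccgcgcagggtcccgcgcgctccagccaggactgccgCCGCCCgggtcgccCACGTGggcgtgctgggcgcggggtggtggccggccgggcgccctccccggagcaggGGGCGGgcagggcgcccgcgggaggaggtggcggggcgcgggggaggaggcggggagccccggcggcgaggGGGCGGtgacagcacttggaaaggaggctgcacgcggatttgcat
TGFB2: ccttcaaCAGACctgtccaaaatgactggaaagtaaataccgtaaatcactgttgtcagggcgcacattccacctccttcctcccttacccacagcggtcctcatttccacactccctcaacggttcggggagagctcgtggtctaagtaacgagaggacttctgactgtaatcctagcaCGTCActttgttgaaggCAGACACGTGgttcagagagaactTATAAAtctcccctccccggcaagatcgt
TGFB3: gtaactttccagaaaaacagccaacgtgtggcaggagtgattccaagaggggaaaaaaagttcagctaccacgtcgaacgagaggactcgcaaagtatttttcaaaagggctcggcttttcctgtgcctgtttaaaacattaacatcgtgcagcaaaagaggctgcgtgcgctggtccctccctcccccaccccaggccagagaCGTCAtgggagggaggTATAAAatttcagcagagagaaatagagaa

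The TGFB2 and TGFB3 windows each held a TATA box, which begins 29 and 30 bases before the start site. A TATA box was present in 10.7% of 35116 such windows of 27305 genes. GC content was 50.4% for TGFB2 and 49.2% for TGFB3, whereas it was 58.4% for TGFBR2 and 80.8% for SMAD3, against a median of 58% over all windows. TGFB2 also held the SMAD element at 2 places, 1 of which overlaps the E-box CACGTG by a base. The SMAD element occurred in 38% of all windows and CACGTG, which the SMAD3 window held as well, in 6.34%. GC boxes were found in TGFBR2 and SMAD3 (42.6% of all windows) and TGACG in TGFB2 and TGFB3 (21.2%). These matches describe the letters only.

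In vehicle-treated cells the members differed widely in level. Per kilobase of annotated exon (GENCODE 44), TGFBR2 was the most abundant in DMSO at 4 h with 17.4 ± 2.32 CPM per kb (SD, n = 3) and lay above every other member in all 3 libraries. SMAD7 (10.6), SMAD3 (10.2) and TGFB2 (10.2) came next and overlapped each other, though 1371 of the 6050 exon bases of TGFB2 are shared with the gene TGFB2-OT1. TGFBR1 followed with 7.90, TGFB1 with 3.68, SMAD4 with 2.77 and SMAD2 with 2.09 CPM per kb. SMAD4 shares 967 of its 19606 exon bases with ENSG00000267699 on the same strand. The value of SMAD2 rests on 36426 annotated exon bases, far more than those of any other member. TGFB3 and TGFBR3 were lowest at 1.13 CPM per kb each and overlapped. At 24 h in DMSO TGFBR2 had the highest mean, 11.5 CPM per kb, although TGFB2 reached 10.4 against 10.1 for TGFBR2 in replicate 3, and TGFB3 and TGFBR3 were again lowest.

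**Figure D1:**
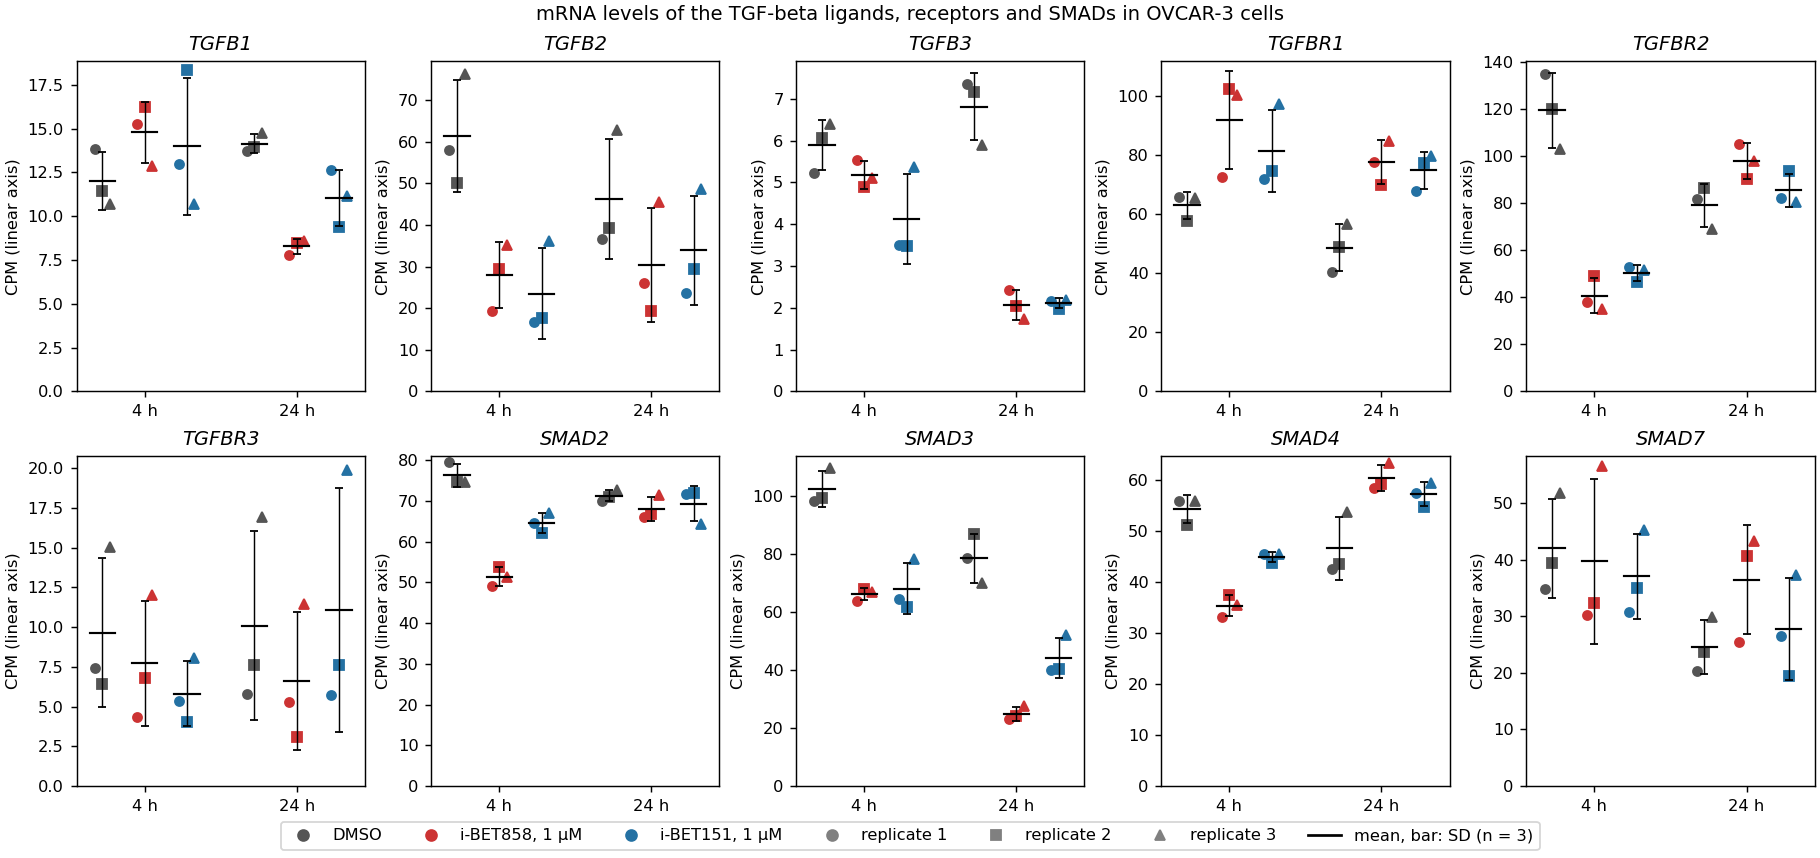
Level of each member in CPM (linear axis from 0) in the 18 libraries, by drug (colour), time and replicate (symbol), with the group mean and SD (n = 3). TGFBR2 is below DMSO with both drugs at 4 h but not at 24 h, SMAD3 and TGFB3 are lowest in the drug-treated libraries at 24 h, and replicate 3 is the highest of its group for TGFB2, TGFBR3 and SMAD7 throughout.

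After 4 h the receptor TGFBR2 showed the largest change of the 10 genes with i-BET858 and TGFB2 with i-BET151, and both genes fell with both drugs. With i-BET858 the 3 SMADs that carry the signal, SMAD2, SMAD3 and SMAD4, fell together, each by 1.48- to 1.54-fold, and TGFBR1 was the only member to rise. With i-BET151 SMAD3 was the only SMAD to pass the test without a replicate block, and SMAD4 passed as well with it. By edgeR's quasi-likelihood test with Benjamini-Hochberg adjustment over all genes, i-BET858 changed 6 of the 10 members (1 higher, 5 lower), where 30.8% of 17192 genes tested passed (14.5% higher, 16.3% lower). i-BET151 changed 3 of 10, all lower, where 16.2% of genes passed (7.81% higher, 8.43% lower). With the replicate number as a block, 6 members passed for each drug, where 45.4% (i-BET858) and 32.7% (i-BET151) of all genes did. At least 2-fold lower and past the test were 2 members with each drug, TGFB2 and TGFBR2, where 7% of all genes were so for i-BET858 and 2.97% for i-BET151. The median log2 change of the 10 members was −0.44 for i-BET858 and −0.40 for i-BET151, and over all genes it was 0.02 and 0.01. In bulk RNA, less RNA per cell and fewer cells that express a gene cannot be told apart.

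TGFBR2 (ENSG00000163513.17, chr3:30606601-30694142, GRCh38) was at 135, 120 and 103 CPM in DMSO at 4 h. It was at 38.2, 49.2 and 34.9 CPM with i-BET858 and at 53.0, 46.7 and 51.4 CPM with i-BET151. Every treated library was below every DMSO library by a wide margin. At 4 h the groups were separate for 44.6% of all genes with i-BET858 and for 36.7% with i-BET151. TGFBR2 was 2.93-fold lower with i-BET858 (log2 change −1.55, SE 0.157, adjusted p = 3.09e-05) and 2.38-fold lower with i-BET151 (−1.25, SE 0.155, adjusted p = 3.43e-04). In replicate 3 alone the log2 changes were −1.56 and −1.0.

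TGFB2 (ENSG00000092969.12, chr1:218345336-218444619) encodes the ligand that depends most on betaglycan. It was at 58.0, 50.1 and 76.2 CPM in DMSO, at 19.5, 29.5 and 35.1 CPM with i-BET858 and at 16.7, 17.7 and 36.1 CPM with i-BET151. The third library was the highest in each group, and no treated library reached a DMSO library, as groups were separate for 44.6% (i-BET858) and 36.7% (i-BET151) of all genes. The log2 change was −1.13 with i-BET858 (SE 0.308, adjusted p = 0.0163) and −1.39 with i-BET151 (SE 0.310, adjusted p = 0.0111). The i-BET858 call was lost without replicate 3 of DMSO (adjusted p = 0.0589) or without replicate 1 of i-BET858 (adjusted p = 0.0628). Leaving out 1 library, the log2 changes of TGFB2 ran from −1.32 to −0.92 with i-BET858 and from −1.84 to −1.19 with i-BET151. TGFB2-OT1, listed at 0 CPM in all 18 libraries, covers 1371 of the 6050 exon bases of TGFB2 on the same strand, and how reads there were counted is not given in the sources used here. TGFB2 also overlaps TGFB2-AS1 on the other strand, which reached at most 0.350 CPM in any library, whereas TGFB1 shares exon bases with HNRNPUL1 on the other strand, which was at 93.1 to 187 CPM, and the strand used in counting is not given in the sources used here. For TGFB1 (15.3, 16.2 and 12.9 CPM with i-BET858 against 13.9, 11.5 and 10.7 in DMSO) the groups overlapped, and its log2 change of 0.30 did not pass (adjusted p = 0.321). With i-BET151 TGFB1 was at 13.0, 18.3 and 10.7 CPM, overlapping DMSO as well (0.21, adjusted p = 0.562). TGFB3 gave −0.18 for i-BET858 and −0.51 for i-BET151, neither past the test (adjusted p = 0.611 and 0.171), the latter reaching −0.70 in replicates 1 and 2 (adjusted p = 0.0438) and −0.75 without replicate 3 of i-BET151 (0.0463).

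The SMADs that carry the signal declined by similar amounts with i-BET858. SMAD2 (ENSG00000175387.16, chr18:47808957-47931146) was at 79.5, 74.7 and 74.6 CPM in DMSO and at 49.2, 53.9 and 51.3 CPM with i-BET858 (log2 change −0.56, SE 0.107, adjusted p = 0.00205). SMAD3 (ENSG00000166949.16, chr15:67063763-67195173) was at 98.1, 99.2 and 109 CPM in DMSO and at 63.8, 67.9 and 66.8 CPM with i-BET858 (−0.62, SE 0.123, adjusted p = 0.00259). SMAD4 (ENSG00000141646.13, chr18:51028528-51085045) was at 55.9, 51.2 and 56.0 CPM in DMSO and at 33.2, 37.4 and 35.5 CPM with i-BET858 (−0.62, SE 0.114, adjusted p = 0.00179). For none of the 3 genes did the groups overlap, as for 44.6% of all genes in this comparison.

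With i-BET151, SMAD3 was at 64.5, 61.5 and 78.1 CPM and fell as well (−0.59, SE 0.123, adjusted p = 0.00752). SMAD2 (64.6, 62.1 and 66.9 CPM) and SMAD4 (45.5, 43.7 and 45.5 CPM) lay below all DMSO libraries but did not pass, with log2 changes of −0.24 (adjusted p = 0.153) and −0.28 (adjusted p = 0.127). Groups did not overlap for 36.7% of all genes in this comparison. With the replicate number as a block, SMAD4 passed (adjusted p = 0.0460). SMAD7 (ENSG00000101665.9, chr18:48919853-48950965), the inhibitory SMAD, was at 34.9, 39.5 and 51.7 CPM in DMSO, with log2 changes of −0.08 and −0.18 for i-BET858 and i-BET151 (adjusted p = 0.855 and 0.682).

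TGFBR1 (ENSG00000106799.13, chr9:99104038-99154192), the kinase that TGFBR2 activates, was at 65.8, 57.9 and 65.7 CPM in DMSO, at 72.8, 103 and 100 CPM with i-BET858 and at 72.2, 74.8 and 97.4 CPM with i-BET151. All treated libraries were above all DMSO libraries, where groups were separate for 44.6% (i-BET858) and 36.7% (i-BET151) of all genes. The log2 change was 0.55 with i-BET858 (SE 0.165, adjusted p = 0.0258). For i-BET151 it was 0.37 (adjusted p = 0.164, and 0.0387 with the block). The i-BET858 call was lost with total library sizes in place of TMM (adjusted p = 0.0671). It was also lost without replicate 1, 2 or 3 of DMSO (0.0576, 0.0986 and 0.0536) and without replicate 2 or 3 of i-BET858 (0.0930 and 0.0694). TGFBR3 (ENSG00000069702.11, chr1:91680343-91906335) ranged from 6.44 to 15.0 CPM in DMSO and from 4.04 to 12.0 CPM with the drugs, with log2 changes of −0.31 and −0.72 (adjusted p = 0.629 and 0.286, the latter 0.0217 with the block). Its change with i-BET151 ran from −1.03 to −0.25 without 1 library.

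**Figure D2:**
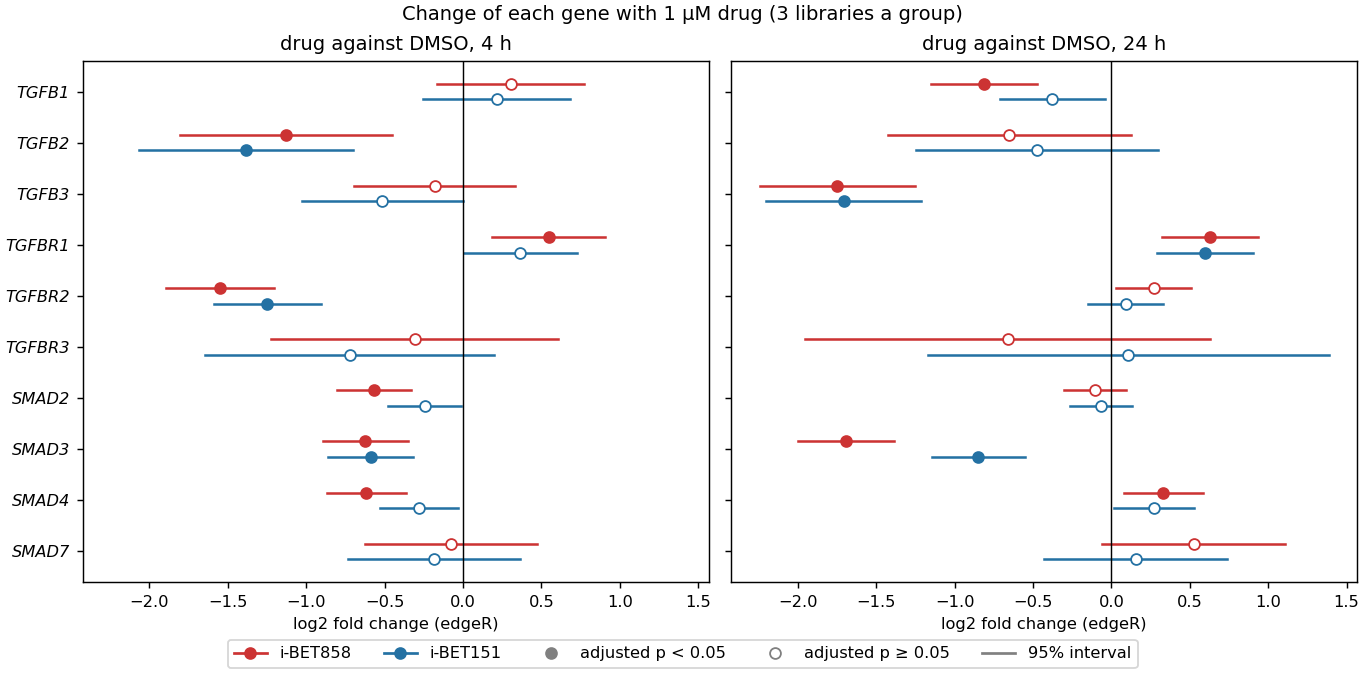
Log2 fold change of each member against DMSO at 4 h and 24 h (edgeR, points) with 95% intervals (lines), for i-BET858 and i-BET151, filled where the adjusted p was below 0.05. TGFBR2 and TGFB2 lie furthest to the left at 4 h and TGFB3 and SMAD3 at 24 h, and TGFBR1 lies to the right of 0 in all 4 comparisons.

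After 24 h a different set of members was low. TGFB3 and SMAD3 fell with both drugs, TGFB1 fell with i-BET858, TGFBR1 rose with both drugs, and TGFBR2 no longer stood below DMSO. i-BET858 changed 5 of 10 members (2 higher, 3 lower), where 41.7% of 17157 genes tested passed (20.5% higher, 21.3% lower). i-BET151 changed 3 of 10 (1 higher, 2 lower), where 33.8% passed (17.2% higher, 16.6% lower). At least 2-fold lower were TGFB3 and SMAD3 with i-BET858, as were 11.2% of all genes, and TGFB3 with i-BET151, as were 8.09%. With the replicate number as a block, 9 members passed for i-BET858 and 6 for i-BET151, where 52% and 45.9% of all genes did. In replicates 1 and 2 only it was 8 and 5 members, where 60.7% and 54.2% of all genes passed. The median log2 change of the members was −0.38 for i-BET858 and 0.01 for i-BET151, and over all genes it was −0.01 and 0.00.

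TGFB3 (ENSG00000119699.7, chr14:75958097-75983011) was at 7.36, 7.17 and 5.89 CPM in DMSO at 24 h. It was at 2.44, 2.06 and 1.73 CPM with i-BET858 and at 2.17, 1.98 and 2.18 CPM with i-BET151, so that all 6 treated libraries were below all DMSO libraries. Groups were separate for 55.1% of all genes tested with i-BET858 at 24 h and for 48.9% of those with i-BET151. TGFB3 was 3.36-fold lower with i-BET858 (log2 change −1.75, SE 0.224, adjusted p = 1.28e-04) and 3.27-fold lower with i-BET151 (−1.71, SE 0.224, adjusted p = 2.36e-04). In replicate 3 alone the values were −1.74 and −1.41.

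SMAD3 was at 78.5, 86.7 and 70.0 CPM in DMSO, at 23.1, 24.1 and 27.5 CPM with i-BET858 and at 40.0, 40.3 and 52.0 CPM with i-BET151. The 3 groups were fully separate, with i-BET858 lowest. The log2 change was −1.69 with i-BET858 (SE 0.138, 3.23-fold lower, adjusted p = 6.50e-06) and −0.85 with i-BET151 (SE 0.134, 1.80-fold lower, adjusted p = 7.57e-04). Both changes were smaller in replicate 3 (−1.34 and −0.43) than in replicates 1 and 2 (−1.84 and −1.08).

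TGFB1 (ENSG00000105329.9, chr19:41301587-41353922), a TGFβ ligand made by most tissues, was at 13.7, 13.9 and 14.8 CPM in DMSO and at 7.77, 8.47 and 8.60 CPM with i-BET858. This was 1.76-fold lower (log2 change −0.81, SE 0.153, adjusted p = 0.00155). With i-BET151 it was at 12.6, 9.40 and 11.1 CPM, below all DMSO libraries (groups were separate for 48.9% of all genes) but not past the test (−0.38, adjusted p = 0.0795, and 0.0442 with the block). TGFB2 was at 36.6, 39.3 and 62.8 CPM in DMSO and at 26.1, 19.4 and 45.6 CPM with i-BET858, where the groups overlapped. Its log2 changes of −0.65 for i-BET858 and −0.47 for i-BET151 did not pass (adjusted p = 0.166 and 0.336). Leaving out 1 library they ran from −1.04 to −0.33 and from −0.84 to −0.16, and the first passed without replicate 3 of i-BET858 (adjusted p = 0.0334). Within replicates 1 and 2 they were −0.76 and −0.56 (adjusted p = 6.11e-04 and 0.00572), and with the block both passed (6.14e-04 and 0.00679).

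TGFBR1 was at 40.6, 49.0 and 56.6 CPM in DMSO, at 77.8, 70.1 and 85.0 CPM with i-BET858 and at 67.9, 77.3 and 79.7 CPM with i-BET151. The log2 changes were 0.63 (SE 0.138, adjusted p = 0.00388) and 0.60 (SE 0.138, adjusted p = 0.00692). Neither drug group overlapped DMSO, as for 55.1% (i-BET858) and 48.9% (i-BET151) of all genes. TGFBR2 was at 81.9, 86.4 and 69.0 CPM in DMSO and at 105, 90.3 and 98.2 CPM with i-BET858. All 3 i-BET858 libraries were higher than DMSO, yet the change of 0.27 did not pass (adjusted p = 0.0695, and 0.0282 with the block). With i-BET151 it was 0.09 (adjusted p = 0.570). TGFBR3 gave −0.66 with i-BET858 (adjusted p = 0.401, 0.0153 with the block and 0.0269 in replicates 1 and 2), which became −0.0258 without replicate 3 of DMSO and −1.29 without replicate 3 of i-BET858, and 0.11 with i-BET151 (adjusted p = 0.908), the latter −0.04 in replicates 1 and 2.

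SMAD4 was at 42.6, 43.6 and 53.7 CPM in DMSO and at 58.5, 59.2 and 63.3 CPM with i-BET858 (log2 change 0.33, SE 0.115, adjusted p = 0.0387). This call was lost without replicate 1 or 2 of DMSO (adjusted p = 0.140 and 0.139), on leaving out replicate 1, 2 or 3 of i-BET858 (0.0708, 0.0746 and 0.0806), with total library sizes (0.0614) and with only both groups compared in the fit (0.0510). With i-BET151 the log2 change of SMAD4 was 0.27 (adjusted p = 0.0934, 0.0247 with the block and 0.00972 without replicate 3 of DMSO). This change passed in replicates 1 and 2 only and with all 18 libraries in 1 fit as well, and the lowest adjusted p over all alternatives was 0.00256. SMAD2 gave −0.11 and −0.06 (adjusted p = 0.378 and 0.625), with 95% intervals of −0.30 to 0.09 and −0.26 to 0.13. SMAD7 was at 25.5, 40.6 and 43.3 CPM with i-BET858 against 20.4, 23.6 and 29.8 CPM in DMSO, a log2 change of 0.53 that did not pass (adjusted p = 0.138, 0.0186 with the block and 0.0278 in replicates 1 and 2). With i-BET151 it was 0.15 (adjusted p = 0.701).

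Whether an effect differed between the times was tested as the change of the drug effect from 4 h to 24 h, with all 18 libraries in 1 fit. With i-BET858, 6 of the 10 members passed (3 higher, 3 lower), where 27.2% of 18154 genes did (14.6% higher, 12.6% lower). With i-BET151, 3 of 10 passed (2 higher, 1 lower), where 13.8% did (6.99% higher, 6.82% lower). TGFBR2 had the largest such change with both drugs, from low at 4 h to the DMSO level or above at 24 h (1.86, SE 0.194, adjusted p = 3.69e-06 with i-BET858 and 1.36, SE 0.193, adjusted p = 2.47e-04 with i-BET151). SMAD4 moved the same way, with estimates below DMSO at 4 h and above it at 24 h (0.99, SE 0.148, adjusted p = 9.45e-05 with i-BET858 and 0.57, SE 0.147, adjusted p = 0.0152 with i-BET151). Against DMSO, SMAD4 with i-BET151 passed at neither time in the main fit, and its i-BET858 call at 24 h was lost in several alternatives. SMAD2 also had a higher value relative to DMSO at 24 h with i-BET858, though still not above DMSO (0.50, SE 0.126, adjusted p = 0.00610).

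TGFB1, TGFB3 and SMAD3 moved the other way with i-BET858. TGFB3 changed by −1.53 (SE 0.311, adjusted p = 0.00136), TGFB1 by −1.07 (SE 0.264, adjusted p = 0.00539) and SMAD3 by −1.03 (SE 0.180, adjusted p = 3.93e-04). For SMAD3 the change was −0.63 in replicate 3 alone, and −1.24 in replicates 1 and 2. With i-BET151 TGFB3 passed (−1.18, SE 0.312, adjusted p = 0.0177), although not without replicate 1 of DMSO at 4 h (0.0504) or replicate 2 of i-BET151 at 24 h (0.0536). Without a filter on low counts that change (adjusted p = 0.136) and those of SMAD2 with i-BET858 (0.0833) and SMAD4 with i-BET151 (0.0897) did not pass. SMAD3 with i-BET151 gave −0.24 (adjusted p = 0.424), and −0.42 in replicates 1 and 2 (adjusted p = 0.0338). With the block, SMAD7 with i-BET858 (0.65, adjusted p = 0.0122) and TGFB2 with i-BET151 (0.94, adjusted p = 0.00219) passed as well. Neither passed in the main fit, and without 1 library these changes ran from 0.48 to 0.96 and from 0.59 to 1.37. The other members did not pass with i-BET858 (TGFB2 0.52, TGFBR1 0.13 and TGFBR3 −0.30, adjusted p = 0.485, 0.718 and 0.822) or with i-BET151 (TGFB1 −0.57, TGFBR1 0.25, TGFBR3 0.85, SMAD2 0.20 and SMAD7 0.36, adjusted p = 0.165 to 0.607). Leaving out 1 library, TGFB2 with i-BET858 ran from 0.12 to 0.81. With i-BET151 TGFBR3 ran from 0.13 to 1.44, SMAD7 from 0.0939 to 0.56, TGFBR1 from 0.14 to 0.38 and TGFB1 from −0.76 to −0.35.

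**Figure D3:**
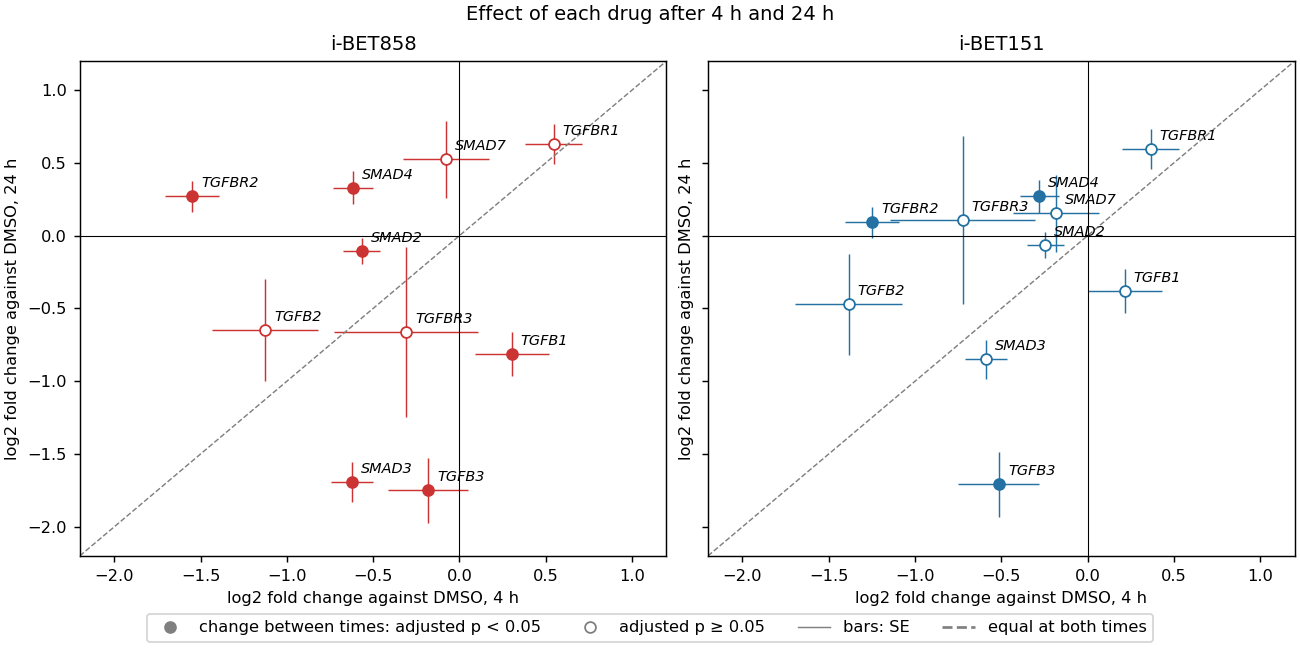
Log2 fold change of each member against DMSO at 4 h (x axis) and 24 h (y axis) for each drug, with SE bars, filled where the change between the times passed (adjusted p below 0.05). TGFBR2 and SMAD4 lie above the dashed line of equal effect with both drugs, TGFB3 lies below it with both, and SMAD3 and TGFB1 are filled below it with i-BET858.

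The DMSO level itself was compared between 24 h and 4 h, because the effects above are relative to it. None of the 10 members passed by edgeR's test, where 0.0386% of genes did, and 9.17% of genes had an unadjusted p below 0.05. DESeq2 called 1 member, where 1.27% of all genes passed, and the fit without a filter 2, where 0.461% did. TGFBR2 was lower at 24 h in all 9 pairs of DMSO libraries (log2 change −0.60, SE 0.136, adjusted p = 0.130, and 0.0101 with the block). SMAD7 was lower in all 9 pairs as well (−0.77, SE 0.273, adjusted p = 0.339, and 0.00948 with the block), as were SMAD3 (−0.38, adjusted p = 0.294), TGFBR1 (−0.37, adjusted p = 0.441) and SMAD2 (−0.10, adjusted p = 0.867), where 18.4% of all genes had separate groups. The groups overlapped for SMAD4 (−0.22), TGFB1 (0.24), TGFB2 (−0.41), TGFB3 (0.21) and TGFBR3 (0.07), with adjusted p from 0.536 to 0.992. TGFBR2 with i-BET858 at 24 h, at 105, 90.3 and 98.2 CPM, thus overlapped the 135, 120 and 103 CPM of DMSO at 4 h.

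The drugs were compared directly as 1 pair at 2 matched times, both at 1 µM. At 4 h none of the 10 members differed past the test by edgeR, where 0.971% of 17192 genes did and 11.9% had an unadjusted p below 0.05. SMAD2 and SMAD4 were lower with i-BET858 than with i-BET151 in all 9 pairs of libraries, as groups were separate for 16.8% of all genes. The difference was −0.32 for SMAD2 (95% interval −0.56 to −0.09, adjusted p = 0.222, and 0.0456 with the block) and −0.34 for SMAD4 (−0.59 to −0.09, adjusted p = 0.229, and 0.0517 with the block). SMAD3 differed by −0.03 (−0.30 to 0.24), TGFBR2 by −0.30 (−0.64 to 0.04) and TGFB2 by 0.26 (−0.42 to 0.93). The intervals of TGFB1 (−0.38 to 0.56), TGFB3 (−0.18 to 0.85), TGFBR1 (−0.18 to 0.54), SMAD7 (−0.44 to 0.66) and TGFBR3 (−0.51 to 1.34) spanned 0 as well.

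At 24 h SMAD3 was the single member that passed, where 0.21% of 17157 genes did. It was 1.80-fold lower with i-BET858 than with i-BET151 (log2 difference −0.84, SE 0.136, 95% interval −1.14 to −0.54, adjusted p = 0.0485), lower in all 9 pairs and by 0.76 in replicates 1 and 2 and 0.92 in replicate 3. The call stood close to the threshold: the adjusted p was 0.00411 with the block, 0.0529 with DESeq2's size factors and 0.116 with only the compared groups in the fit. It was lost without replicate 1 or 2 of DMSO (0.0990 and 0.101), without replicate 1, 2 or 3 of i-BET858 (0.199, 0.215 and 0.131) and without replicate 1, 2 or 3 of i-BET151 (0.137, 0.146 and 0.118), while the difference itself ranged from −0.92 to −0.69 over the fits without 1 library. TGFB1 was lower with i-BET858 in all 9 pairs without passing (−0.44, interval −0.77 to −0.10, adjusted p = 0.289), and groups were separate for 19.5% of all genes. TGFB3 (−0.04, interval −0.54 to 0.45), TGFBR1 (0.03, −0.27 to 0.34), SMAD2 (−0.04, −0.24 to 0.16), SMAD4 (0.06, −0.19 to 0.31) and TGFBR2 (0.18, −0.06 to 0.42) did not pass. The intervals were wider for TGFB2 (−0.95 to 0.59), SMAD7 (−0.21 to 0.95) and TGFBR3 (−2.06 to 0.52), whose difference was −1.42 without replicate 3 of i-BET858 and −0.0101 without replicate 3 of i-BET151.

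**Figure D4:**
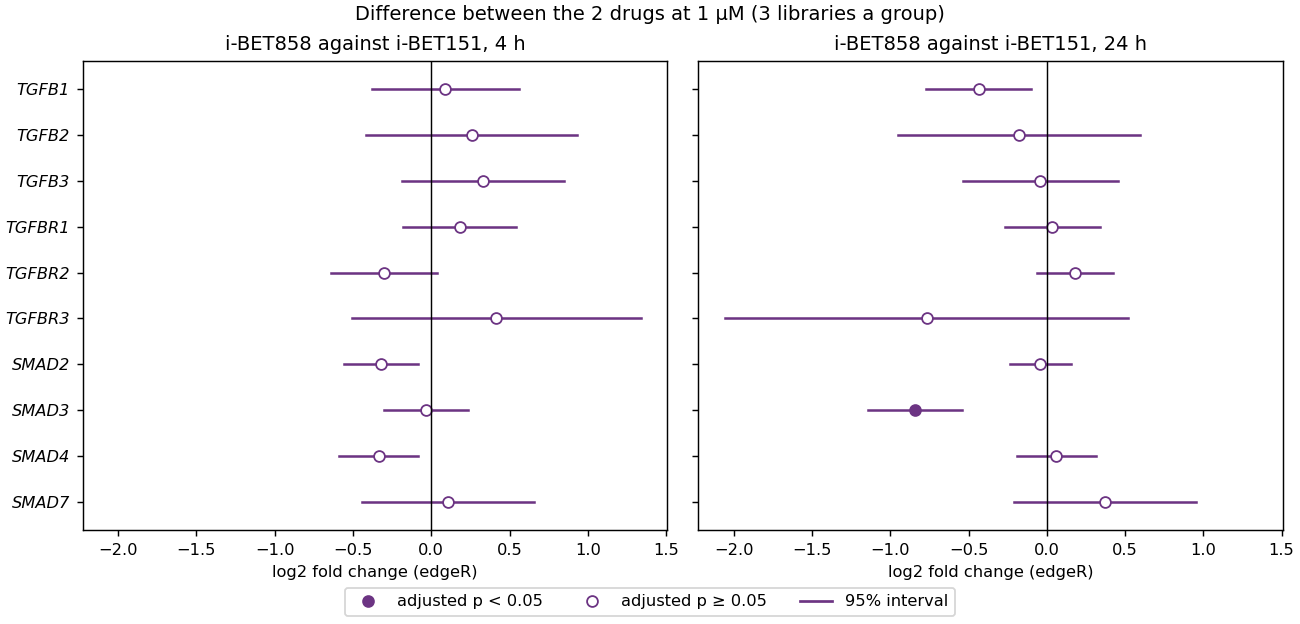
Log2 fold change of each member with i-BET858 relative to i-BET151 at 4 h and 24 h (edgeR, points) with 95% intervals (lines), filled where the adjusted p was below 0.05. SMAD2 and SMAD4 lie left of 0 at 4 h without passing, and SMAD3 at 24 h (−0.84) is the single filled point.

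Around these 10 genes, 87 further genes of the pathway were listed by role, of which 86 were in the tables and 78 were tested at 4 h. With i-BET858 39 of 78 passed at 4 h (21 higher, 18 lower) and 43 of 77 at 24 h (20 higher, 23 lower), and with i-BET151 28 of 78 (14 and 14) and 32 of 77 (15 and 17). Over all genes tested 30.8% and 41.7% passed for i-BET858, and 16.2% and 33.8% for i-BET151, and the counts of each list below are to be read against these shares. The median log2 change over these lists at 4 h and 24 h was 0.05 and −0.14 with i-BET858, and −0.04 and −0.27 for i-BET151. TGFβ is secreted in a latent complex that LTBPs tether to the matrix and integrins containing the β6 or β8 chain open. Of the 14 genes of latent storage and release, 4 passed with i-BET858 at 4 h (2 higher, 2 lower) and 8 at 24 h (1 higher, 7 lower), and with i-BET151 2 passed at 4 h (both lower, 5 with the block) and 8 at 24 h (1 higher, 7 lower). With the block 32.7% of all genes passed for i-BET151 at 4 h. In replicates 1 and 2 only, 13 of these genes passed with i-BET858 at 24 h, where 60.7% of all genes did.

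ITGB8, the β8 integrin chain, fell at 4 h and rose at 24 h. It was at 454, 483 and 498 CPM in DMSO at 4 h and at 175, 177 and 203 CPM with i-BET858 (log2 change −1.37, adjusted p = 3.68e-05), and at 24 h it rose from 336, 361 and 343 to 528, 454 and 608 CPM (0.57, adjusted p = 0.00470). With i-BET151 the changes were −0.95 and 0.61 (adjusted p = 9.75e-04 and 0.00446). The change between the times was 1.98 for i-BET858 and 1.58 for i-BET151 (adjusted p = 2.14e-06 and 7.18e-05). ITGB6, the β6 chain, fell at 24 h by 3.11 under i-BET858 and 2.56 under i-BET151 on the log2 scale (adjusted p = 9.85e-05 and 4.47e-04), from 4.79, 4.61 and 8.31 CPM in DMSO to at most 1.48 CPM in any treated library. LTBP4 fell by 1.28 and 0.97 (adjusted p = 3.09e-04 and 0.00247). NRROS, which anchors latent TGFβ on myeloid cells and was at 3.61 to 6.91 CPM in DMSO at 24 h, fell by 3.59 and 3.77 (adjusted p = 2.33e-04 and 2.88e-04). The 5 immune markers summed to 1.39 to 3.09 CPM in the same DMSO libraries, 0.861 to 1.4 CPM with i-BET858 and 0.0582 to 0.806 CPM with i-BET151, and their part in this change was not tested. It had fallen by 1.17 and 1.10 at 4 h (adjusted p = 0.00902 and 0.0227), the latter not past the test without any 1 of the DMSO libraries (0.0727, 0.0593 and 0.0694) or replicate 1 or 2 of i-BET151 (0.0941 and 0.0976), nor without a filter on low counts (0.0703).

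Among 7 co-receptors and related proteins, BAMBI, a decoy receptor without kinase activity, stood out by rising at both times. It was at 3.44, 3.07 and 2.88 CPM in DMSO at 4 h, at 39.2, 36.8 and 33.1 CPM with i-BET858 and at 21.6, 20.1 and 14.6 CPM with i-BET151. The log2 changes were 3.54 and 2.58 (adjusted p = 7.78e-07 and 1.42e-05). At 24 h the changes were 1.52 and 1.16 (adjusted p = 0.00548 and 0.0267), smaller in replicate 3 (0.47 and 0.55) than in replicates 1 and 2 (2.28 and 1.69), and 2.15 and 1.78 without replicate 3 of DMSO. The i-BET151 call at 24 h was lost without replicate 1 or 2 of DMSO (0.0898 and 0.0988) or replicate 1, 2 or 3 of i-BET151 (0.0566, 0.0530 and 0.0566). LRG1, a secreted modulator of the pathway, fell at 24 h by 3.58 and 2.50 (adjusted p = 0.00312 and 0.0198), the latter not past the test without replicate 3 of DMSO (0.0510) or replicate 2 of i-BET151 (0.0747). Without replicate 3 of i-BET151 that log2 change of LRG1 was −4.22. In all, 1 of the 7 passed with i-BET858 at 4 h and 4 at 24 h (1 higher, 3 lower), and 2 passed with i-BET151 at each time, although 5 at 24 h with the block (45.9% of all genes) and 0 to 4 at 24 h without 1 library (23.8% to 35.1% of all genes). The i-BET151 count at 4 h was 1 without replicate 3 of DMSO or replicate 1 of i-BET151 (10.9% and 9.6% of all genes), and 4 without a filter (10% of all genes). With at least 10 counts in every library, 2 passed with i-BET858 at 24 h (49% of all genes).

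Of 14 genes of the activin, nodal and GDF arm, which shares SMAD2 and SMAD3, 9 were tested. With i-BET858 8 passed at 4 h (4 higher, 4 lower) and 6 at 24 h (3 and 3), and all 6 had moved the same way at 4 h. With i-BET151 6 passed at 4 h and 5 at 24 h, and the 4 that passed at both times moved the same way. That 24 h count was 3 with at least 10 counts in every library (40.3% of all genes) and 8 in replicates 1 and 2 (54.2%). INHBB, the βB chain of activin and inhibin, fell from 95.1, 127 and 84.5 CPM to 17.1, 22.4 and 14.4 CPM with i-BET858 at 4 h (−2.50, adjusted p = 5.60e-05) and by 2.17 with i-BET151 (adjusted p = 3.61e-04). At 24 h INHBB fell by 2.08 under i-BET858 and 1.45 under i-BET151 (adjusted p = 2.17e-04 and 0.00260). ACVR1C, the receptor ALK7, was at 0.584, 0.541 and 0.408 CPM in DMSO at 4 h and at 2.37, 4.82 and 1.79 CPM with i-BET858 (2.54, adjusted p = 0.00202), and rose by 2.28 with i-BET151 (adjusted p = 0.00795). At 24 h it had no count in 1 DMSO library, and the treated libraries were at 2.03 to 3.60 CPM (adjusted p = 0.00207 for i-BET858 and 0.00248 for i-BET151).

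Of the SMADs outside the list, SMAD5, which carries BMP signals, fell at 4 h and rose at 24 h. It fell by 0.72 under i-BET858 and 0.46 under i-BET151 (adjusted p = 0.00251 and 0.0439) and rose by 0.41 and 0.46 (adjusted p = 0.0116 and 0.00902). The i-BET151 call at 4 h was lost without any 1 of the DMSO libraries (0.147, 0.0867 and 0.113) or of the i-BET151 libraries (0.122, 0.0872 and 0.111), without replicate 1 of i-BET858 (0.0601), without a filter on low counts (0.0522) and in replicates 1 and 2 (0.0624), and the i-BET858 call at 24 h without replicate 2 of DMSO (0.0548). SMAD1 fell with i-BET858 at both times (−0.61 and −0.83, adjusted p = 0.00927 and 0.00975). With i-BET151 its changes of −0.47 and −0.46 did not pass, though they did in 6 and 4 of 18 alternatives. SMAD6, the second inhibitory SMAD, gave −0.14 at 4 h with i-BET858 (adjusted p = 0.450) and rose by 0.44 at 24 h (adjusted p = 0.0414), a call lost without replicate 1 or 3 of DMSO (0.107 and 0.0975) or replicate 2 or 3 of i-BET858 (0.178 and 0.0612) with total library sizes (0.115), with only the groups compared (0.0545) and in replicates 1 and 2 (0.0567).

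Regulators of SMAD activity numbered 21 with values, of which 11 passed with i-BET858 at 4 h (2 higher, 9 lower) and 8 of 20 at 24 h (5 higher, 3 lower). With i-BET151 7 passed at each time (1 higher and 6 lower at 4 h, 5 higher and 2 lower at 24 h, where the block gave 11). In replicates 1 and 2 only, the counts at 24 h were 16 for i-BET858 and 14 for i-BET151, where 60.7% and 54.2% of all genes passed, and with the block 45.9% did for i-BET151. SKI, a co-repressor that binds SMADs, rose in all 4 comparisons (1.68 and 1.38 at 4 h, 1.30 and 1.09 at 24 h, adjusted p = 1.69e-04, 0.00141, 1.52e-04 and 6.88e-04). TGIF2, another co-repressor, fell in all 4, from 60.2, 66.1 and 68.9 CPM to 21.8, 13.9 and 15.1 CPM with i-BET858 at 4 h (−1.94, adjusted p = 3.37e-05). SKIL, an immediate target and feedback inhibitor, gave −0.29 with i-BET858 at 4 h (adjusted p = 0.113, and 0.0280 with the block) and 0.13 at 24 h (adjusted p = 0.393). PMEPA1, a target that sequesters SMAD2 and SMAD3, gave −0.27 and −0.55 (adjusted p = 0.372 and 0.209, the latter 0.0105 with the block).

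Of 23 tested genes of a list of genes that TGFβ is known to regulate, 13 passed with i-BET858 at 4 h (12 higher, 1 lower) and 14 at 24 h (8 higher, 6 lower), and with i-BET151 10 (9 higher, 1 lower) and 9 (5 higher, 4 lower), the last 16 in replicates 1 and 2, where 54.2% of all genes passed. The 14 became 9 without replicate 1 of DMSO or replicate 2 of i-BET858, where the share of all genes passing fell as well, from 41.7% to 34.3% and 34.8%. The list median at 4 h and 24 h was 0.76 and 0.06 with i-BET858, and 0.37 and −0.27 for i-BET151. Other pathways also regulate these genes, so the counts describe the list only. CDKN1A, the cell cycle inhibitor p21, rose in all 4 comparisons, from 9.55, 9.74 and 4.98 CPM to 175, 171 and 121 CPM with i-BET858 at 4 h (4.27, adjusted p = 1.68e-06). TGFBI, a matrix protein named for its induction by TGFβ, rose in all 4 as well (2.50 and 1.61 at 4 h, 2.70 and 1.75 at 24 h, adjusted p = 0.00282, 0.0465, 3.44e-05 and 8.22e-04). Its call with i-BET151 at 4 h was lost without replicate 2 or 3 of DMSO (0.114 and 0.128) or replicate 1 or 2 of i-BET151 (0.112 and 0.184), without replicate 1 or 2 of i-BET858 (0.0647 and 0.0701), with total library sizes (0.0592) and with only the groups compared (0.0716). ANGPTL4, a secreted lipase inhibitor, rose at 4 h (3.43 and 2.35, adjusted p = 3.83e-04 and 0.00773), by 4.32 and 3.25 without replicate 2 of DMSO. Its changes of 0.51 and 0.36 at 24 h did not pass.

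CCN2, a matricellular protein often used as a readout of the pathway, was at 141, 134 and 195 CPM in DMSO at 4 h and at 360, 402 and 412 CPM with i-BET858 (1.32, adjusted p = 5.94e-05), and it rose by 0.79 with i-BET151 (adjusted p = 0.00366). At 24 h it rose by 0.91 with i-BET858 (adjusted p = 0.0263), a call lost without replicate 1 or 2 of DMSO (0.0856 and 0.0812) or replicate 3 of i-BET858 (0.102, log2 change 0.57). With i-BET151 at 24 h it gave 0.49 (adjusted p = 0.223, and 0.00141 with the block). Between the drugs, 3 listed genes passed at each time, all 6 values close to the threshold. At 4 h BAMBI (difference 0.96, adjusted p = 0.0309), JUNB, an AP-1 subunit (0.87, adjusted p = 0.0237), and CDKN2B, the cell cycle inhibitor p15 (0.95, adjusted p = 0.0206), were higher with i-BET858. At 24 h TGIF2 was lower (−0.67, adjusted p = 0.0386) and CDKN2B (0.63, adjusted p = 0.0376) and CDKN1A (0.95, adjusted p = 0.0485) were higher. JUNB and CDKN2B were named after their values were seen. With only both drugs in the fit none of these calls held (adjusted p = 0.0960, 0.0855 and 0.0855 at 4 h, 0.113, 0.104 and 0.104 at 24 h). At 4 h BAMBI was also lost without any 1 library but replicate 3 of DMSO (adjusted p up to 0.128), JUNB without replicate 2 of DMSO or any 1 of the drug-treated libraries (up to 0.107) and CDKN2B without any 1 of the i-BET858 libraries or replicate 2 of i-BET151 (up to 0.122). At 24 h all 3 were lost without any 1 library but replicate 3 of DMSO (up to 0.190, 0.169 and 0.215).

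**Figure D5:**
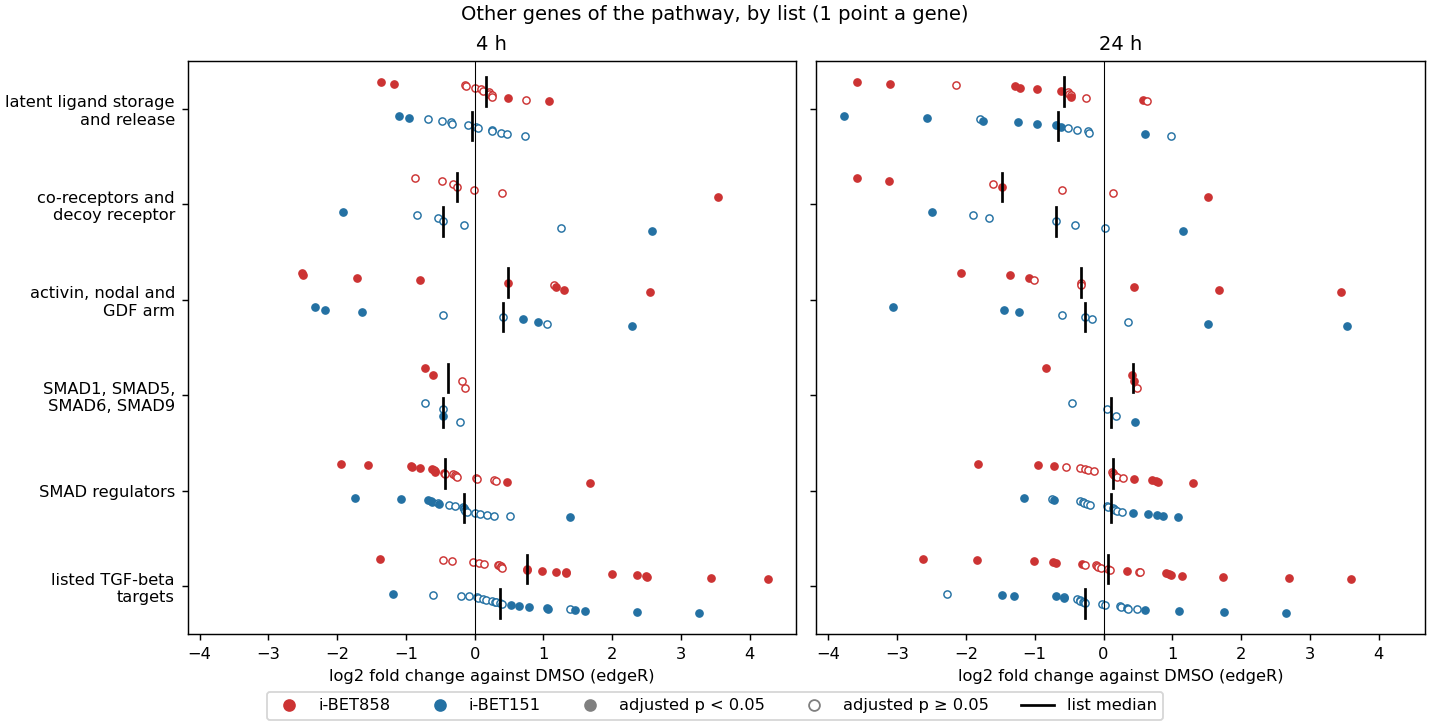
Log2 fold change against DMSO at 4 h and 24 h of the listed pathway genes outside the 10 members, 1 point a gene, by list and drug, filled where the adjusted p was below 0.05, with the list median as a line. Genes of latent storage lie mostly left of 0 at 24 h, and listed targets lie mostly right of 0 at 4 h with i-BET858.

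The genes most like the 4 members that changed at least 2-fold were found by the distance between 6 group means of log2 CPM, centred on each gene's own mean, over 16569 genes tested at both times. For TGFBR2 they were NUAK1 (distance 0.278) and BLZF1 (0.281), for TGFB2 CNNM1 (0.217) and TM9SF1 (0.280), for TGFB3 PRR29 (0.222) and PAXIP1-AS2 (0.230), and for SMAD3 SVEP1 (0.229) and RMDN2 (0.257). A distance near 0 means the same course over drug and time. The ovarian epithelial markers summed to 12159 to 12710 CPM with i-BET858 and 9085 to 10566 CPM in DMSO at 4 h. At 24 h they summed to 7388 to 7738 CPM with i-BET858, 7310 to 7746 CPM with i-BET151 and 9279 to 10651 CPM in DMSO. Endothelial markers summed to 9.23 to 15.9 CPM with i-BET858 and 3.38 to 6.63 CPM in DMSO at 4 h. The part of these shifts in the results was not tested.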

How the data were processed

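RNA-seq had been carried out by the authors on poly-A selected RNA of OVCAR-3 cells (18 libraries, 6 groups of 3 replicates). The authors aligned reads to GRCh38 (hg38) with STAR and deposited the values as raw counts per gene, without normalization. The annotation, the strand setting and tool versions were not given in the sources used here. The deposited tables held 0 columns that could not be matched to a sample. Library totals were 27323969 to 46299994 counts, and replicates were treated as separate samples.

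Each time was fitted with its 9 libraries by edgeR's quasi-likelihood test (edgeR 4.0.16 in R 4.3.3) after TMM scaling and the filterByExpr filter, without a replicate block, with Benjamini-Hochberg adjustment over all genes tested. A gene passed at an adjusted p below 0.05. Changes between times were fitted with all 18 libraries in 1 model. Ratios for replicate 3 used a prior count of 2. The values given do not use this assumed pairing of replicate numbers unless the block is named. Same-numbered libraries were taken as paired in that alternative, because deviations from the group means correlated in all same-numbered pairs (0.129 to 0.349 at 4 h, 0.151 to 0.328 at 24 h, 9 pairs each). In pairs with different numbers they correlated from −0.322 to 0.231 at 4 h and from −0.299 to 0.278 at 24 h. A shift of replicate 3 shared by all groups would also make all same-numbered pairs correlate, so these values cannot show that each number marks a pair.

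On simulated data for i-BET858 against DMSO at 4 h (17192 genes) the test recovered 64% of 2-fold and 99% of 4-fold changes. At 24 h (17157 genes) it recovered 76% and 97%, and for the change of effect between times (18154 genes) 47% and 92%. Each rate rests on 100 changed genes, drawn from those without low counts. All other genes were left unchanged and replicate 3 was given no shift. The rates therefore do not cover genes with low counts, or data in which as many genes change as here. Alternatives were DESeq2's size factors, total library size, no filter, at least 10 counts in every library, DESeq2 1.42.0, only the groups compared, all libraries in 1 fit, the replicate block, each library left out, replicates 1 and 2 only, and replicate 3 by itself. They were applied to the other pathway genes after the data were seen.

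The members and lists were chosen with earlier results of these data known. All 10 members are named in every main comparison. Of other pathway genes, the named ones are the 2 per list with the largest change with i-BET858 at each time among those past the test, in the same direction in all 9 pairs of libraries and at an average log2 CPM of at least 1, plus a few set by name, of which CCN2, SKIL, PMEPA1 and SMAD6 are given and another is not reported here. Promoter sequences were taken from a RefSeq table (GRCh38.p14), at the start site nearest to the GENCODE 44 canonical start, and all 10 members matched.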

Additional observations from a re-analysis of the deposited data

Results flagged for a closer look

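The drug effect of 6 members differed between 4 h and 24 h with i-BET858 and that of 3 members with i-BET151, by the test of the change itself in edgeR with all 18 libraries (log2 scale, positive where the value relative to DMSO was higher at 24 h). With i-BET858 the change was 1.86 for TGFBR2, 0.99 for SMAD4, 0.50 for SMAD2, −1.03 for SMAD3, −1.07 for TGFB1 and −1.53 for TGFB3. With i-BET151 it was 1.36 for TGFBR2, 0.57 for SMAD4 and −1.18 for TGFB3. Over all genes, 27.2% passed this test with i-BET858 and 13.8% with i-BET151. Each change is relative to the DMSO libraries of the same time, in which TGFBR2 was lower at 24 h by 0.60 without passing (adjusted p = 0.130 by edgeR).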

How the results depend on the processing

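With at least 2-fold required as well, the genes called were 2421 and 1220 against DMSO at 4 h (i-BET858 and i-BET151, 5303 and 2791 without it), 3234 and 2347 at 24 h (7158 and 5797), 36 and 11 between the drugs at 4 h and 24 h (167 and 36), 2738 and 1217 for the change of effect (4941 and 2508) and 1 between the DMSO groups (7). With the replicate block 5616 genes and 6 members passed for i-BET151 at 4 h (3 members without it), 8926 genes and 9 members for i-BET858 at 24 h (5), 7870 genes and 6 members for i-BET151 at 24 h (3), 1655 genes and 1 member between the drugs at 4 h, 749 genes at 24 h, 4580 genes for the change of the i-BET151 effect, and 375 genes and 2 members between the DMSO groups. As shares of all genes tested these were 32.7%, 52%, 45.9%, 9.63%, 4.37%, 25.2% and 2.07%, in that order. The block changed the call of 15 of the 90 member values, all newly past the test, and no other call of a member. With replicates 1 and 2 only the genes were 4433 and 9367 for i-BET151 at 4 h and 24 h, 392 and 1261 between the drugs, 4735 for the change of the i-BET151 effect and 58 between the DMSO groups, with 10507 for i-BET858 at 24 h. The members were 8 (i-BET858) and 5 (i-BET151) at 24 h, where 60.7% and 54.2% of all genes passed, and 5 for the change of the i-BET151 effect, where 26.3% did. Without a filter on low counts 513 and 343 genes differed between the drugs, and 161 genes (0.461% of all) and 2 members between the DMSO groups. In that fit 8 members passed for i-BET858 at 24 h, where 23.4% of all genes did. DESeq2 called 658 and 436 genes between the drugs, and 178 genes (1.27%) and 1 member between the DMSO groups. With DESeq2's size factors 13 genes (0.0758%) and 0 members differed between the drugs at 24 h and 4 genes between the DMSO groups. Total library size gave 331 and 56 genes between the drugs and moved the median of all genes from 0.02 to −0.14 with i-BET858 at 4 h. With only the groups compared, 0 genes differed between the drugs at 4 h, 1 gene and 0 members at 24 h and 0 genes between the DMSO groups, and with all 18 libraries 549 differed between the drugs at 4 h. The cause of these shifts was not tested.

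Without 1 library at a time, genes past the test ranged from 4125 to 5936 (members 4 to 6) for i-BET858 and 1685 to 3222 (3 to 4) for i-BET151 at 4 h, and from 5763 to 7963 (4 to 5) and 4272 to 6175 (3 to 4) at 24 h. Between the drugs they ranged from 0 to 129 (0 members) at 4 h and 1 to 110 (0 to 1) at 24 h. For the change of effect they ranged from 4058 to 5217 (6 members) and 1595 to 2671 (2 to 3), and between the DMSO groups from 0 to 10 (0 members). As shares of all genes tested, i-BET858 and i-BET151 gave 23.2% to 33.7% and 9.44% to 18.3% at 4 h, and 32.7% to 44.9% and 23.8% to 35.1% at 24 h. Between the drugs the shares were 0% to 0.726% at 4 h and 0.00558% to 0.62% at 24 h. For the change of effect they were 21.5% to 27.9% and 8.45% to 14.3%, and between the DMSO groups 0% to 0.0534%.

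No member past the test reversed. Among those not past it, total library size turned the difference between the drugs to −0.0152 for TGFB1 at 4 h and −0.0236 for TGFBR1 at 24 h. In replicates 1 and 2 it became 0.0715 for SMAD3 and −0.0638 for SMAD7 at 4 h and 0.13 for TGFB3 at 24 h, TGFBR3 became −0.0447 with i-BET151 at 24 h and −0.0538 between the DMSO groups, and of the other pathway genes SKIL became 0.0054 with i-BET151 at 4 h and ANGPTL4 −0.20 at 24 h. Leaving out 1 library, the values that changed sign ranged as follows. Against DMSO they were −0.78 to 0.15 for TGFBR3 and −0.42 to 0.0887 for SMAD7 with i-BET858 at 4 h, −0.0272 to 0.38 for TGFB1 with i-BET151 at 4 h, and −0.63 to 0.73 for TGFBR3 and −0.13 to 0.36 for SMAD7 with i-BET151 at 24 h. Of the other pathway genes, PMEPA1 ranged from −0.32 to 0.0565 with i-BET151 at 4 h and ANGPTL4 from −0.0185 to 0.60 with i-BET151 at 24 h. Between the drugs they were −0.0723 to 0.33 for TGFB1, −0.0573 to 0.73 for TGFBR3, −0.10 to 0.0782 for SMAD3 and −0.24 to 0.28 for SMAD7 at 4 h, and −0.59 to 0.20 for TGFB2, −0.17 to 0.0775 for TGFB3 and −0.0329 to 0.10 for TGFBR1 at 24 h. For the change of the i-BET858 effect they were −0.0250 to 0.25 for TGFBR1 and −0.94 to 0.29 for TGFBR3, and for TGFBR3 between the DMSO groups −0.52 to 0.53.

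With 3 libraries a group, p-values measure the spread between these libraries of 1 cell line. TGFB3 and TGFBR3 were the least deeply counted members (59 to 243 and 111 to 684 counts), which limits what can be detected for them.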
